A study of Mus musculus with 8 samples.

Results

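The LIF receptor and STAT3 pathway was followed through 7 genes, Lifr, Il6st, Jak1, Stat3, Socs3, Bcl3 and Pim1, chosen by name for their roles and all found among the 18094 genes of the expression table. All 7 passed the filter on low values, a mean of 10 normalized counts, and were tested. The RNA-seq libraries came from mESCs of the E14Tg2A line and from embryoid bodies (EBs), the aggregates in which mESCs start to differentiate. WT and CTCF-K20R mESCs (day 0) grew on growth-arrested fibroblasts in medium with serum, LIF and the 2i inhibitors CHIR99021 (against GSK3) and PD0325901 (against MEK). WT and CTCF-K20R EBs (day 4) were raised from these cells in hanging drops, in serum medium that lacked LIF and for which no 2i inhibitor is listed. CTCF-K20R cells were made with CRISPR/Cas9 and carry arginine in place of lysine 20 of CTCF, a DNA-binding protein that organizes chromatin. The labels do not say whether the 2 CTCF-K20R libraries of a day came from different clones, so clone and genotype cannot be told apart.

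LIF is a cytokine that keeps mESCs undifferentiated. It binds a receptor made of LIFR (gene Lifr) and gp130 (gene Il6st), which sets off JAK kinases, above all JAK1, that phosphorylate the transcription factor STAT3. STAT3 then enters the nucleus and turns on target genes such as Socs3, Bcl3 and Pim1, and SOCS3 feeds back on the receptor and the kinase to limit the signal. STAT3 activity depends on phosphorylation, which RNA levels do not measure.

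The data describe 3 patterns in these genes. From mESCs to EBs, with LIF removed, the levels of Lifr, Il6st, Stat3, Socs3, Bcl3 and Pim1 were lower in both genotypes, while Jak1 stayed within the range of 953 to 1211 normalized counts. In CTCF-K20R EBs both receptor genes were lower than in WT EBs, Lifr at 39.2% and Il6st at 52.2% of the WT mean. Pim1 was higher in CTCF-K20R cells on both days, at 193% of WT on day 0 and 187% on day 4.

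Promoter sequences are shown for 4 genes on which these patterns turn, the 2 receptor genes, Pim1 and Socs3. All 7 genes matched the RefSeq promoter table (GRCm38.p6), in which each sequence runs 5′ to 3′ on the gene's strand from 250 bases before to 50 bases after a transcription start, and which holds 9 sequences for these genes because Lifr and Pim1 have 2 starts. Of the 2 entries each for Lifr and Pim1, the upstream one is shown. The windows shown for Lifr and Socs3 lie inside the gene spans given below, so their starts are not the outermost of these genes. Capitals mark CG dinucleotides in Lifr, Il6st and Pim1, and in Socs3 they mark the STAT motif TTCNNNGAA, which reads the same on both strands.
Lifr (chr15:7129322-7129621, plus strand): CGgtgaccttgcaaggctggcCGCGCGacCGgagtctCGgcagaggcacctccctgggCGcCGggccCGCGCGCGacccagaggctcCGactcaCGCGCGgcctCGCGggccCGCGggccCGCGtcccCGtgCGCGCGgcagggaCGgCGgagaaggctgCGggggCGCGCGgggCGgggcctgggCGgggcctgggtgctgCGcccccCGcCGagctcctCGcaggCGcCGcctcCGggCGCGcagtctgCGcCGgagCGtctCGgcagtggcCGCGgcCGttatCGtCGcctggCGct
Il6st (chr13:112463820-112464119, plus strand): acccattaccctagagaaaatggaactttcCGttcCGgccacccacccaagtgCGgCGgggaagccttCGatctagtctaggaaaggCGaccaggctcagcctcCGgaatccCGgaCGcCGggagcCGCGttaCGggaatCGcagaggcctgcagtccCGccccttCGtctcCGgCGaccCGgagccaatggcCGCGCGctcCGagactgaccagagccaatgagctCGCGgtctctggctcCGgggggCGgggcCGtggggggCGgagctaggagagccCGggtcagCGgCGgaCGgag
Pim1 (chr17:29490535-29490834, plus strand): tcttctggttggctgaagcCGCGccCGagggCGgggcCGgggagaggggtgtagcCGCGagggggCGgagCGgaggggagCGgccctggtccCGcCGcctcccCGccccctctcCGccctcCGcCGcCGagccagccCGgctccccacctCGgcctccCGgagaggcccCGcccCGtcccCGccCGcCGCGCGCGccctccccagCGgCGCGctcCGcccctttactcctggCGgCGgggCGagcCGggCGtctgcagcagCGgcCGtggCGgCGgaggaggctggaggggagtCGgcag
Socs3 (chr11:117969317-117969616, minus strand): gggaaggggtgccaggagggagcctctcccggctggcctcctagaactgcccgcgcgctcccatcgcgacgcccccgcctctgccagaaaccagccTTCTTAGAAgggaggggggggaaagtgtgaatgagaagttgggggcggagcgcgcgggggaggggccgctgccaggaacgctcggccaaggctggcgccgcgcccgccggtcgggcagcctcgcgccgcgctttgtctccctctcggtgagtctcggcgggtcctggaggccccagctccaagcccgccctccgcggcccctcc

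The STAT motif occurred in 1 of the 9 sequences, that of Socs3, as TTCTTAGAA starting 154 bases before the RefSeq transcription start used. Among all 32851 promoter sequences of the table, 8.3% held this motif. A match to these letters is not a bound site, and no match says only that the letters are not in the window. The sequences shown were rich in CG, with 53 CG dinucleotides for Lifr, 33 for Il6st, 42 for Pim1 and 31 for Socs3, against a median of 7 over the table. The second starts of Lifr and Pim1 had 4 and 5.

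Normalized counts added up to between 19412659 and 21311513 per library, sums that do not measure read depth. Taken as the limit of detection, 3 reads came to between 2.43 and 3.44 normalized counts. The lowest value of the 7 genes, that of Bcl3 in a WT EB library, was 21.1. The 2 WT libraries of each day differed by less than the sampling noise, with a squared difference of 0.326 times on day 0 and 0.246 times on day 4 of that for independently drawn reads, against 4.36 and 4.88 for the CTCF-K20R pairs. Each WT pair was therefore averaged and counted as 1 sample, and the error of every test comes from the CTCF-K20R pairs, with the lone WT sample assumed to vary like them. The 6 stem cell markers, which include Pou5f1 and Nanog, summed to between 115830 and 121880 in mESCs, where each of them was abundant. Of the fibroblast markers in mESCs, Dcn and Postn were listed at 0 in all 4 libraries, Lum and Col3a1 stayed at or under 1.51, and Col1a1, Col1a2 and Loxl1 lay between 12.2 and 61.2. Thy1 and Pdgfrb, which other cells also express, were higher and differed by genotype on day 0. Thy1 had 465 and 459 in WT and 104 and 103 in CTCF-K20R (log2 fold change -2.14, adjusted p = 0.00155), and Pdgfrb had 131 and 138 against 353 and 369 (1.42, adjusted p = 0.00866). Their part in the day 0 differences was not tested.

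**Figure D1:**
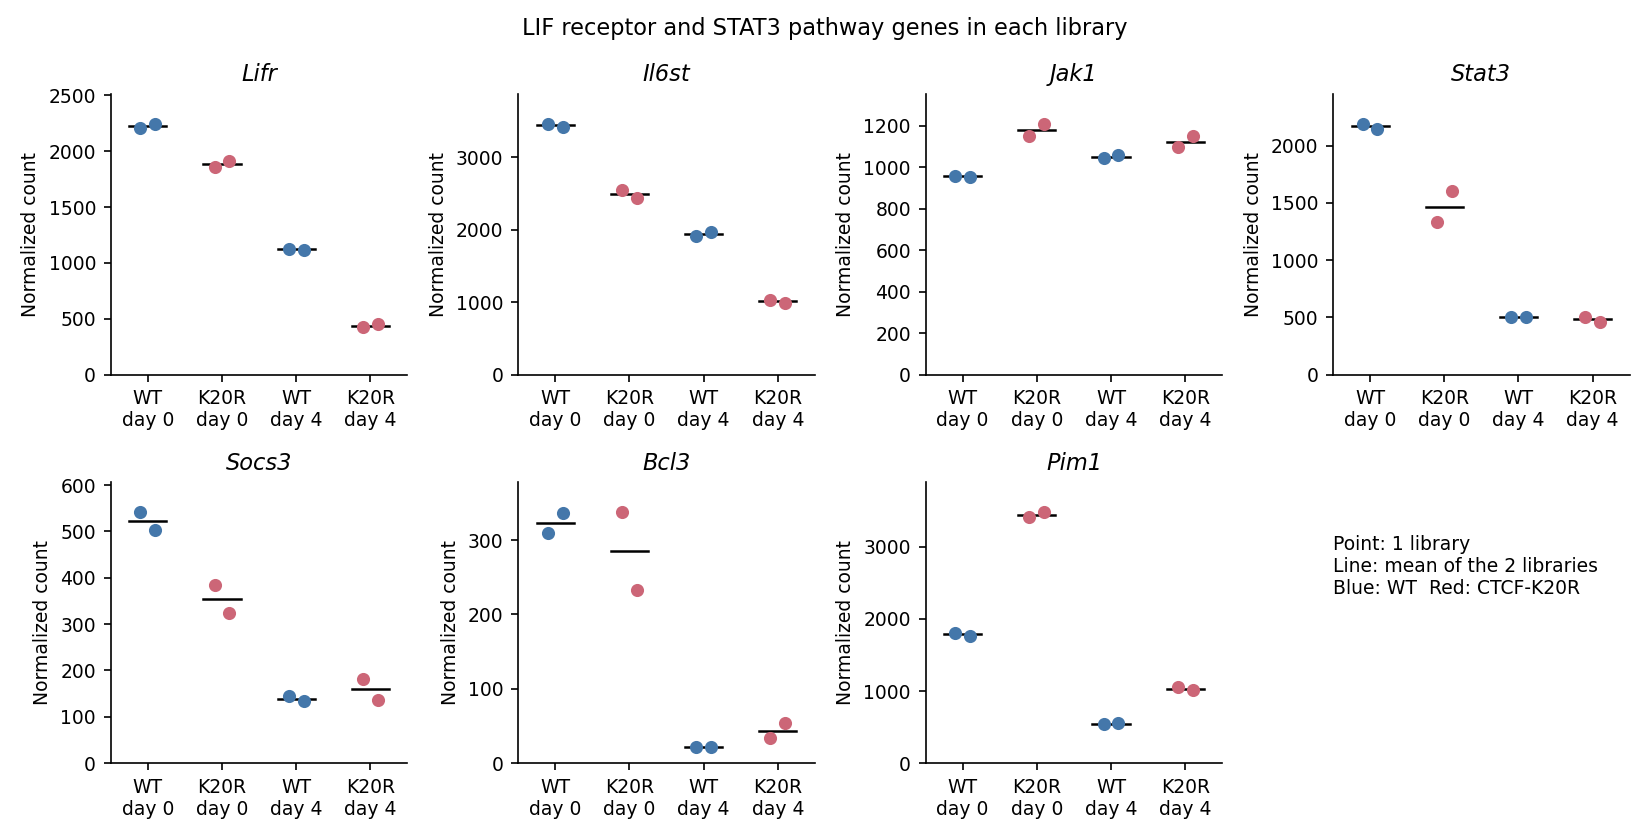
Normalized count (vertical axis, from 0) of each of the 7 genes in each of the 8 libraries, with WT in blue, CTCF-K20R in red and a line at the mean of the 2 libraries of a group. In day 4 EBs, Lifr lies at 1122 and 1120 in WT and at 426 and 452 in CTCF-K20R, and Pim1 is higher in CTCF-K20R than in WT on both days.

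Lifr (ENSMUSG00000054263), the ligand-specific receptor chain, occupies bases 7090614 to 7197489 of chromosome 15 (GRCm38, as for all positions here). In mESCs, its normalized counts were 2209 and 2247 for WT and 1857 and 1911 for CTCF-K20R. In EBs it had 1122 and 1120 in WT and 426 and 452 in CTCF-K20R. The CTCF-K20R libraries were below the WT libraries on both days, by a wide margin on day 4 and a narrow one on day 0. Lifr fell by 1.35 on the log2 scale in the mutant EBs, with a standard error of 0.073 and an adjusted p of 0.000161 (limma, Benjamini-Hochberg). On day 0 its log2 fold change was -0.24 (standard error 0.073), which did not pass the test (adjusted p = 0.0849). The genotype effect itself differed between the days, with an interaction of -1.11 (standard error 0.103, adjusted p = 0.00172). Of the 7 genes, Lifr alone was a DEG on day 4, that is, a gene past both a 2-fold minimum and the adjusted p threshold of 0.05, and 8.65% of all genes tested were DEGs in that direction.

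Il6st (ENSMUSG00000021756) encodes gp130, the receptor chain that LIF shares with IL-6 and related cytokines, and lies on chromosome 13 from 112464070 to 112510086. It had 3463 and 3417 normalized counts in WT mESCs and 2554 and 2433 in CTCF-K20R mESCs. The EB libraries had 1911 and 1971 in WT and 1033 and 994 in CTCF-K20R. Il6st thus followed the order of Lifr, highest in WT mESCs and lowest in CTCF-K20R EBs, with no overlap between any of the 4 groups. It fell by 0.94 on the log2 scale in the mutant EBs (adjusted p = 0.000283, limma) and by 0.46 in the mutant mESCs (adjusted p = 0.00944), each with a standard error of 0.061. The difference between the days was -0.47 (adjusted p = 0.0146), and this call was lost without 1 of 3 libraries, namely CTCF-K20R day 0 replicate 1 (adjusted p = 0.0521) or either CTCF-K20R day 4 library (adjusted p = 0.0674 and 0.0768). The day 0 call of Il6st was lost without CTCF-K20R day 0 replicate 2 and without either CTCF-K20R day 4 library. Leaving out a day 4 library kept the day 0 log2 fold change at -0.46. Only the error changed, which comes from the CTCF-K20R pairs of both days.

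In bulk libraries, fewer cells that express a gene and less RNA per cell cannot be told apart. The marker genes of the EBs also differed between the genotypes, some lower and some higher in CTCF-K20R. The 6 early mesoderm markers (T, Mixl1, Mesp1, Eomes, Tbx6 and Msgn1) summed to 37886 and 38029 normalized counts in WT EBs and to 2464 and 2359 in CTCF-K20R EBs, and 6 of 6 fell. The 6 endoderm and blood vessel markers summed to 6597 and 6615 in WT EBs and to 408 and 371 in CTCF-K20R EBs, where 3 of the 5 tested fell and Pecam1 rose. The stem cell markers summed to 16071 and 16211 in WT EBs and to 35961 and 35231 in CTCF-K20R EBs, and 6 of 6 rose. The 4 trophoblast markers summed to 8181 and 8184 in WT EBs and to 1193 and 1038 in CTCF-K20R EBs, sums that were mostly Krt8. Of these markers, 2 of 4 fell (Krt8 and Cdx2), and Elf5 and Krt7 did not pass. The 3 neural markers summed to 1935 and 1901 against 2645 and 2677, mostly Nes, and 3 of 3 rose. The visceral and parietal endoderm markers were mixed, since Amn rose (1.64), Sparc and Lama1 fell (-0.33 and -2.79), and Cubn (1.71) and Dab2 (0.87) did not pass. Their sum of 3359 and 3301 against 2142 and 2053 was mostly Sparc and Lama1. The part of these markers in the lower Lifr and Il6st was not tested.

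Jak1 (ENSMUSG00000028530), the main kinase on gp130, lies on chromosome 4 from 101152367 to 101265282. It had 959 and 953 normalized counts in WT mESCs, 1152 and 1211 in CTCF-K20R mESCs, 1044 and 1060 in WT EBs, and 1097 and 1149 in CTCF-K20R EBs. Its groups lay close together, and WT mESCs were the lowest. On day 0 Jak1 rose by 0.31 on the log2 scale (standard error 0.074; adjusted p = 0.0482, limma), a call that was lost in 11 of 18 alternatives. Among them was each fit without 1 of the CTCF-K20R libraries. Without a day 4 library the day 0 value stayed at 0.31 and only the error estimate changed. On day 4 the log2 fold change was 0.093 (standard error 0.074, adjusted p = 0.36). Jak1 overlaps Raver2 on the opposite strand, and the use of strand in the counting is not given in the sources used here. Raver2 had between 310 and 344 normalized counts in mESCs. In EBs Raver2 had 701.9 and 712.0 in WT and 1136.5 and 1196.6 in CTCF-K20R. Some reads of Jak1 may be shared, which was not tested.

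Stat3 (ENSMUSG00000004040), the transcription factor at the centre of the pathway, lies on chromosome 11 from 100885098 to 100939540. In mESCs it had 2192 and 2147 normalized counts in WT and 1329 and 1607 in CTCF-K20R. In EBs it had 507 and 508 in WT and 506 and 461 in CTCF-K20R. The genotypes stood apart on day 0 and nearly met on day 4. Stat3 fell by 0.57 on the log2 scale in the mutant mESCs (adjusted p = 0.0436, limma), and its day 4 value of -0.072 did not pass (adjusted p = 0.698), each with a standard error of 0.133. The day 0 call was lost without any single CTCF-K20R library. Without a day 4 library the day 0 value stayed at -0.57 and only the error estimate changed. The difference between the days did not pass the test (0.50, adjusted p = 0.108). Stat3 overlaps Stat5a on the opposite strand, whose values stayed between 73.4 and 128.5 normalized counts.

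Among the STAT3 targets, Socs3 (ENSMUSG00000053113), the feedback inhibitor, lies on chromosome 11 from 117966079 to 117970047. It had 542 and 503 normalized counts in WT mESCs and 383 and 324 in CTCF-K20R mESCs, against 145 and 133 in WT EBs and 182 and 136 in CTCF-K20R EBs. The genotypes did not overlap on day 0 and overlapped on day 4. Its log2 fold changes of -0.57 on day 0 (standard error 0.224, adjusted p = 0.154) and 0.18 on day 4 (standard error 0.224, adjusted p = 0.562, both from limma) did not pass the test. Without CTCF-K20R day 4 replicate 1 the day 4 value was -0.028. On day 0, the CTCF-K20R means of Stat3 and Socs3 were both at 67.7% of WT, while Bcl3 was at 88.5% and Pim1 at 193%.

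Bcl3 (ENSMUSG00000053175), an IκB-family coactivator of NF-κB, lies on chromosome 7 from 19808462 to 19822770. It had 309 and 336 normalized counts in WT mESCs, 338 and 233 in CTCF-K20R mESCs, 21.8 and 21.1 in WT EBs, and 33.3 and 53.6 in CTCF-K20R EBs. Both CTCF-K20R EB libraries were above WT, but they differed from each other by more than the lower of them differed from WT. The day 4 log2 fold change of 0.95 (standard error 0.381) did not pass the test (adjusted p = 0.102 from limma), nor did the day 0 value of -0.20 (standard error 0.381, adjusted p = 0.76). The day 4 difference passed in 2 of 18 alternatives. These were all 8 libraries as separate samples (adjusted p = 0.014), which counts each WT pair as 2 samples, and quantile normalization (adjusted p = 0.0481, log2 fold change 1.15). In the other 16 it did not pass, and without CTCF-K20R day 4 replicate 2 the log2 fold change was 0.61.

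Pim1 (ENSMUSG00000024014), a serine/threonine kinase that promotes survival and growth, lies on chromosome 17 from 29490753 to 29496112. It had 1803 and 1767 normalized counts in WT mESCs and 3412 and 3480 in CTCF-K20R mESCs. In EBs it had 549 and 550 in WT and 1052 and 1008 in CTCF-K20R. Both CTCF-K20R libraries were far above WT on each day, in contrast to Lifr and Il6st. Pim1 rose by 0.95 on the log2 scale on day 0 (adjusted p = 0.00155, limma, with a standard error of 0.061) and by 0.90 on day 4 (adjusted p = 0.000319), short of the 2-fold minimum for a DEG. The day 0 adjusted p was 0.0589 and 0.0588 without CTCF-K20R day 4 replicate 1 or 2, fits in which no gene at all was called on day 0. The 2 effects differed by -0.044 (standard error 0.087), which did not pass the test (adjusted p = 0.743). Pim1 overlaps the antisense gene Gm26885, which had at most 27.7 normalized counts in any library.

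**Figure D2:**
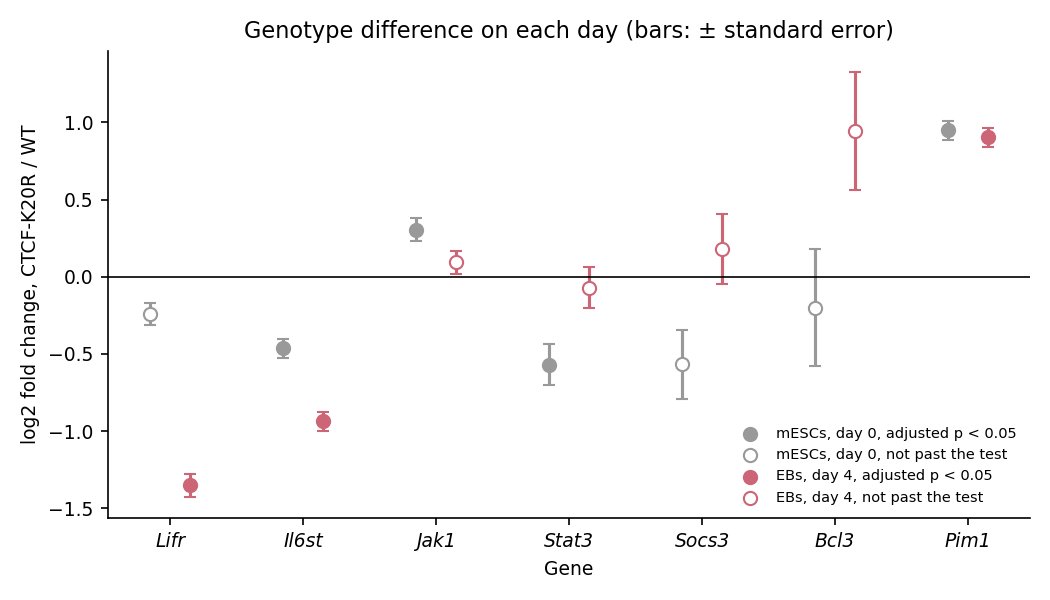
Log2 fold change of CTCF-K20R over WT (vertical axis) for each gene on day 0 (grey) and day 4 (red), with bars of 1 standard error and filled points for an adjusted p under 0.05. Lifr shows the lowest value, -1.35 on day 4, and Pim1 lies at 0.95 and 0.90.

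Counted over the 7 genes, 3 passed the test on day 4 (Lifr and Il6st lower, Pim1 higher) at an adjusted p under 0.05, beside 40.1% of all genes, so the count itself is near the background. On day 0, 4 passed (Il6st and Stat3 lower, Jak1 and Pim1 higher), beside 15.4% of all genes. This day 0 count was 2 and 1 without CTCF-K20R day 0 replicate 1 and 2, and 0 of 7 without either CTCF-K20R day 4 library, where limma called 0 of 15767 genes on day 0 and 5 of the 7 genes had an unadjusted p under 0.05. The effect differed between the days for 2 of the 7 genes, Lifr and Il6st, beside 26.6% of all genes, so this count too is near the background. Over the 7 genes the median log2 fold change came to 0.093 on day 4 and -0.24 on day 0, while the medians over all genes were 0.0087 and -0.012. The CTCF-K20R libraries did not overlap the WT libraries for 6 of the 7 genes on each day, beside 77.9% of all genes on day 0 and 85.0% on day 4.

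The day 4 shifts of Lifr, Il6st, Bcl3 and Pim1 were larger than the median shift of the genes around them. Genes with large shifts mostly exceed such a median, so this is a description only. The 20 tested neighbours, taken equally from both sides, had a day 4 median log2 fold change of 0.12 around Lifr and 0.16 around Pim1. Around Il6st the median was -0.29, in the direction of Il6st itself, and around Bcl3 it was 0.46. Around Jak1 the day 4 median of 0.59 was above the value of Jak1.

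From mESCs to EBs, the levels of all 7 genes but Jak1 were lower in both genotypes. In CTCF-K20R cells, where 2 libraries stood on each day, 6 of the 7 genes fell past the DEG thresholds, beside 11.6% of all genes. Their log2 fold changes were -2.10 for Lifr (standard error 0.060), -1.30 for Il6st, -1.60 for Stat3, -1.15 for Socs3, -2.70 for Bcl3 (standard error 0.311) and -1.74 for Pim1, with adjusted p between 7.98e-06 and 0.00315 from limma. For Jak1 it was -0.073 (standard error 0.060, adjusted p = 0.339). In WT cells, 4 genes were lower by over 2-fold on day 4, beside 16.3% of all genes. These were Stat3 (-2.09), Socs3 (-1.90), Bcl3 (-3.85) and Pim1 (-1.70), while Lifr was at -0.99, Il6st at -0.83 and Jak1 at 0.14. The WT values set 1 sample against 1 and have no replicate check.

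In terms of what was left on day 4, Lifr kept 50.3% of its day 0 mean in WT and 23.3% in CTCF-K20R cells, and Il6st kept 56.4% and 40.6%. For Stat3 the order was the other way, with 23.4% in WT and 32.9% in CTCF-K20R, as it was for Socs3, with 26.6% and 45.1%, and for Bcl3, with 6.65% and 15.2%. Pim1 kept 30.8% and 29.9%. Of these differences between the genotypes, those of Lifr and Il6st passed the interaction test given above, and those of Stat3, Socs3, Bcl3 and Pim1 did not. LIF and the 2i inhibitors, the growth surface and the days in culture all differ between mESCs and EBs, so LIF removal cannot be told apart from the rest.

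**Figure D3:**
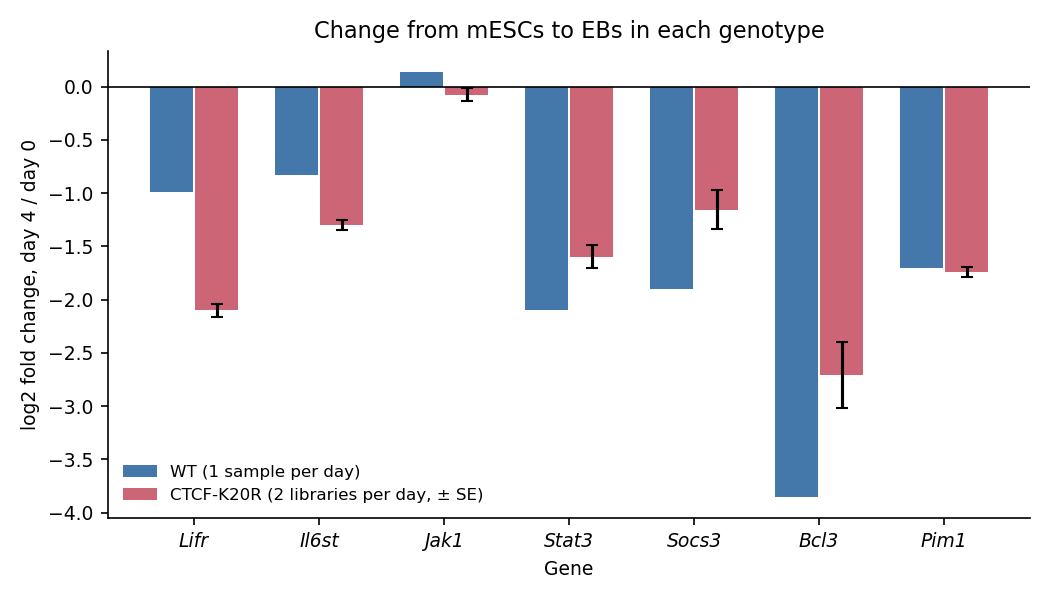
Log2 fold change from day 0 to day 4 (vertical axis) in WT (blue, 1 sample per day, no error bar) and CTCF-K20R cells (red, bars of 1 standard error). Lifr falls further in CTCF-K20R, at -2.10, than in WT, at -0.99, whereas Bcl3 is at -2.70 and -3.85.

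Between genes, levels were compared as normalized counts per kilobase of the longest coding transcript in GENCODE vM21. In WT mESCs the order was Pim1 (662), Il6st (396), Stat3 (359), Lifr (231), Socs3 (205), Jak1 (195) and Bcl3 (174). In CTCF-K20R EBs it was Pim1 (382), Jak1 (229), Il6st (117), Stat3 (80.0), Socs3 (62.4), Lifr (45.5) and Bcl3 (23.5). On this scale Lifr was well under Jak1 in CTCF-K20R EBs. The length of the transcripts in use is not known for these cells, so neighbours in the order, such as Lifr, Socs3 and Jak1 in WT mESCs, are not separated.

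The genes whose profiles over the 6 samples were most like those of the receptor genes were looked up among the 11059 genes whose mean reached 100 normalized counts, by the root mean square difference of log2 values centred on each gene's mean. For Lifr they were Ppic, a cyclophilin, Npr1, a natriuretic peptide receptor, and Hdac7, a histone deacetylase, at 0.067, 0.067 and 0.121. For Il6st they were Nt5dc3, Parvb and Clcn2, at 0.084 to 0.106. For Pim1 they were Gpt2 and Gys1, enzymes of alanine and glycogen metabolism, and Tex19.1, at 0.077 to 0.140. Among the 7 genes themselves, Stat3 and Socs3 were the closest pair, at 0.261, followed by Lifr and Il6st, at 0.338. With 6 samples and so many genes, close profiles are common, and these values are a description.

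Other genes of the pathway were counted in 5 lists of 40 genes, of which 38 were in the table and tested. On day 4, 15 of the 38 passed the test, 9 higher and 6 lower in CTCF-K20R EBs. This is close to the share of all genes, 40.1%. On day 0, 3 passed, with Tyk2 and Stat5b higher and Klf5 lower, beside 15.4% of all genes. Over the 38 genes the median log2 fold change came to 0.017 on day 4 and -0.087 on day 0. Il6 and Pramel7 were not analysed here.

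Of the other receptors of the gp130 family, Il11ra1 and Cntfr fell in CTCF-K20R EBs, although neither was lower on day 4 than on day 0 in WT cells, as Lifr and Il6st were. Il11ra1, the receptor for IL-11, stood at 207 and 182 in WT EBs and at 68.5 and 86.3 in mutant EBs, in normalized counts, and it fell by 1.33 on the log2 scale (adjusted p = 0.0124 from limma). Cntfr, the receptor for CNTF, had 813 and 784 in WT EBs and 524 and 405 in CTCF-K20R EBs, and it fell by 0.79 (adjusted p = 0.0458). Il6ra was at 17.1 to 19.6 in all EB libraries, with a log2 fold change of -0.021, and Osmr was at 6.81 to 12.1. Of the 4 receptors, 2 thus passed on day 4, beside 40.1% of all genes. On day 0 limma called 0 of 4, beside 15.4% of all genes, with 1 at an unadjusted p under 0.05.

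Of the 8 ligand genes tested, Ctf2, which encodes the cytokine neuropoietin, rose on day 4 (log2 fold change 1.86, adjusted p = 0.0202 from limma). Its WT EB libraries were near the limit of detection, at 2.88 and 6.48 normalized counts, and its CTCF-K20R EB libraries were at 18.4 and 20.8. Lif itself had 76.8 and 74.7 normalized counts in WT mESCs and 32.1 and 25.9 in CTCF-K20R mESCs, and 68.1 and 96.4 in WT EBs against 256.7 and 125.0 in CTCF-K20R EBs. Its log2 fold changes of -1.36 on day 0 and 1.11 on day 4 did not pass the test (adjusted p = 0.112 and 0.111), while the difference between the days did (2.48, adjusted p = 0.0438). The wide spread of the CTCF-K20R EB libraries for Lif was larger than the difference of the lower of them from WT.

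**Figure D4:**
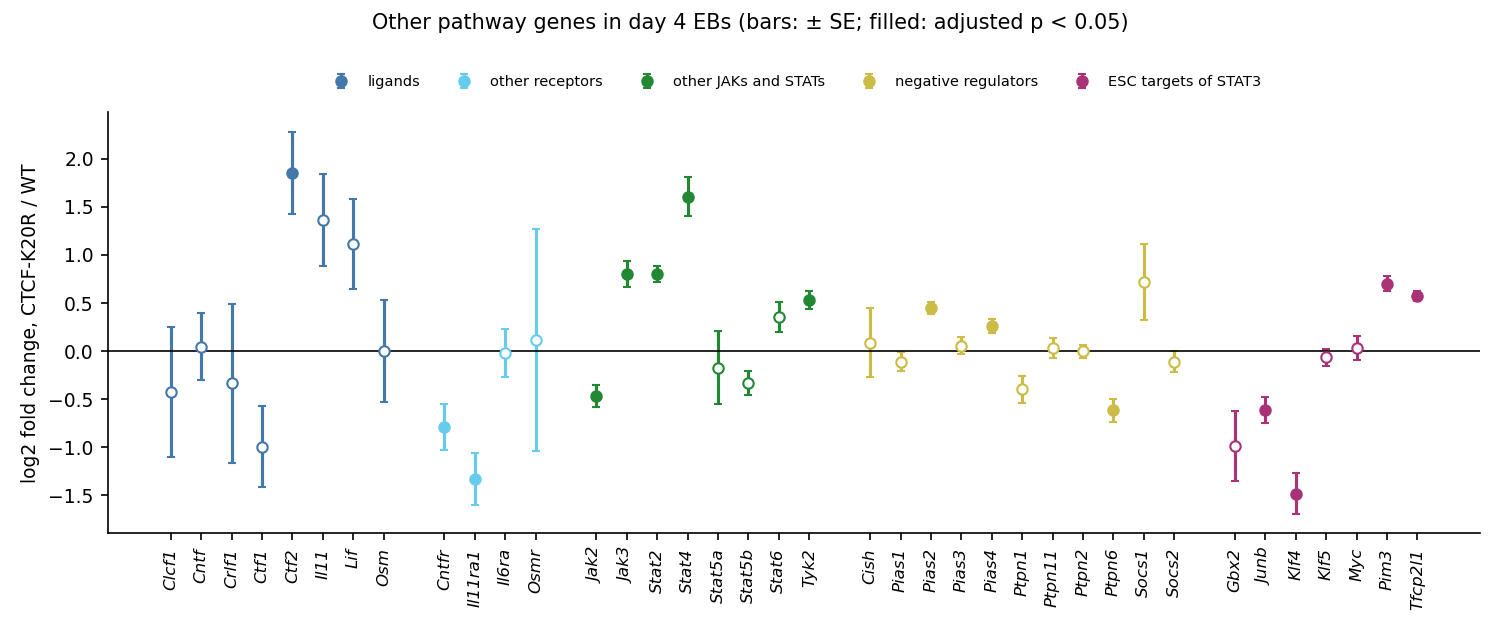
Log2 fold change of CTCF-K20R over WT in day 4 EBs (vertical axis) for the 38 other pathway genes, coloured by list, with bars of 1 standard error and filled points for an adjusted p under 0.05. Ctf2 and Stat4 are the filled points above 1, and Il11ra1 and Klf4 those below -1.

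Among the other JAKs and STATs, 5 of 8 passed on day 4, beside 40.1% of all genes. Stat4 rose most, from 39.98 and 39.74 normalized counts in WT EBs to 121.7 and 125.4 in CTCF-K20R EBs (log2 fold change 1.61, adjusted p = 0.00262 from limma). Stat2, which acts in interferon signalling, rose by 0.80, as did Jak3, and Tyk2, another JAK that can bind gp130, rose by 0.53. Jak2, also a gp130 kinase, fell by 0.47 (adjusted p = 0.0270). Stat5a, which overlaps Stat3, had a log2 fold change of -0.17 that did not pass (adjusted p = 0.746).

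Among the 11 negative regulators, 3 passed on day 4, beside 40.1% of all genes. Ptpn6, which encodes the phosphatase SHP-1, fell by 0.62 on the log2 scale, and Pias2 and Pias4, of a family that binds STATs, rose by 0.45 and 0.26. Socs1, the close relative of Socs3, had 56.0 and 58.9 normalized counts in WT EBs against 95.1 and 95.5 in CTCF-K20R EBs, and its log2 fold change of 0.72 did not pass (adjusted p = 0.204 from limma). On day 0 limma called 0 of the 11, beside 15.4% of all genes, with 3 at an unadjusted p under 0.05.

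The targets of STAT3 in mESCs were split on day 4, with 2 higher, 2 lower and 3 that did not pass. Of all genes, 40.1% passed on that day. Klf4, a pluripotency factor, had 105.8 and 104.5 normalized counts in WT EBs against 44.3 and 30.8 in CTCF-K20R EBs, a fall of 1.48 on the log2 scale (adjusted p = 0.00405 from limma). Junb, an early response gene, fell by 0.61. Tfcp2l1, another pluripotency factor, rose from 134.3 and 139.8 to 203.0 and 205.4 (log2 fold change 0.57, adjusted p = 0.00103), and Pim3, the paralog of Pim1, rose by 0.70. Myc, with 917 and 910 in WT EBs and 954 and 916 in CTCF-K20R EBs, had a log2 fold change of 0.033. On day 0, Pim3 did not share the difference of Pim1, with a log2 fold change of -0.15 (adjusted p = 0.241), and Klf5 fell by 0.40 (adjusted p = 0.0335).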

How the data were processed

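The authors trimmed the reads with Trim_Galore (v0.4.4), quantified them on mm10 with salmon (v0.9.1), summed transcripts to genes with tximport (v1.20.0) and normalized with DESeq2 (v1.10.1). The deposited values are thus a signal per gene and library: normalized counts, which are not whole. Of the values under 10, 40.2% to 51.6% lay within 5% of a read step of a whole read, against 10% by chance. The rest did not, which gave no reads to fit a count model to. The annotation release and the use of strand are not given in the sources used here.

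For genes whose mean reached 10, log2(value + 1) was fitted by limma 3.58.1 (R 4.3.3, mean-variance trend, Benjamini-Hochberg over 15767 genes, 2 residual and 3.51 prior degrees of freedom), with a mean per group. The study's methods call the libraries of a group biological replicates, without saying whether cultures or clones differed, and the labels do not say. The p-values measure only the spread between these samples. On this scale changes of low genes are understated. The script was tested on simulated data with changes on day 4 only and a shared spread setting for all genes. The read depth is not known, since sums of normalized counts do not measure it, and limits of detection cover counting error only. Positions and overlaps came from GENCODE vM21, promoters from RefSeq, and plots from Python 3.11.15 with matplotlib 3.10.9. All 8 value columns were matched by name. Named were the 7 members, the pathway genes called or with a role of interest, and the 3 nearest profiles. Jak2, Stat5a, Socs1, Myc, Lif and the others named without a DEG call were chosen after their values were seen. An item of the pathway lists is not reported here and was left out of their counts. The members and lists were chosen with earlier results of these data known. Alternatives (scaling, pseudocount, filter, error model, samples left out) are given in the closing section.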

Additional observations from a re-analysis of the deposited data

Results flagged for a closer look

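The genotype effect differed between the days (limma's interaction test) for 2 of the 7 genes and 11 of 38 other pathway genes. Over all genes the share was 26.6%, so that both counts are near the background. Each value is the log2 fold change on day 4 minus that on day 0. It was -1.11 for Lifr and -0.47 for Il6st. Among ligands and receptors it was 2.48 for Lif and -2.22 for Il11ra1. Among kinases and STATs it was -0.83 for Jak2, 0.48 for Stat2, 2.03 for Stat4 and -1.17 for Stat5b. Among negative regulators it was -0.84 for Ptpn1 and 0.54 for Pias2, and among STAT3 targets it was -1.16 for Klf4, 0.77 for Tfcp2l1 and 0.85 for Pim3. The adjusted p of these 13 values ran from 0.00172 for Lifr to 0.0438 for Lif. Groups of 2 libraries were too small to test single libraries as outliers.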

How the results depend on the processing

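The day 4 calls of Lifr, Il6st and Pim1 held in all 18 alternatives, with log2 fold changes of -1.39 to -1.31, -0.99 to -0.91 and 0.87 to 0.98, and so did the adjusted p calls of the 6 falls from day 0 to day 4 in CTCF-K20R cells, of which 5 were DEGs without CTCF-K20R day 4 replicate 2 (Socs3 at -0.95). The number of the 7 genes past the test on day 0 was 4. It was 6 with all 8 libraries as separate samples, 2 with a pseudocount of 0.1, without the filter on low values and at an adjusted p under 0.01, 1 with only the compared groups fitted and 0 without the mean-variance trend, and 0 to 4 with 1 library left out. Past the interaction test were 2 genes, but 6 with all 8 libraries as separate samples, 1 without the mean-variance trend and at an adjusted p under 0.01, and 1 to 2 with 1 library left out. All 8 libraries as separate samples made 2 interaction DEGs in place of 1, and quantile normalization made 2 day 4 DEGs in place of 1. The sign turned for values that had not passed the test: Stat3 on day 4 (0.032) and the interaction of Pim1 (0.077) after quantile normalization, Socs3 on day 4 without CTCF-K20R day 4 replicate 1 (-0.028, against up to 0.39 with another library left out), and Bcl3 on day 0 without CTCF-K20R day 0 replicate 2 (0.066, against down to -0.47). Over all genes, 6329 passed on day 4 (3356 to 10323 under the alternatives), 2429 on day 0 (0 to 7562) and 4200 for the interaction (1355 to 8915), with the highest count for all 8 libraries as separate samples. Quantile normalization moved the day 4 DEGs over all genes from 1087 higher and 1364 lower to 1434 and 1237. All 8 libraries as separate samples counts each WT pair as 2 samples. In that fit 4 ligands, 5 negative regulators and 7 JAKs and STATs passed on day 4, beside 10323 of all 15767 genes. The cause was not tested.

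With the replicate number of the CTCF-K20R libraries as a replicate block, 3 genes passed on day 4 and 3 on day 0, where Jak1 was lost (adjusted p = 0.0545 from limma). Replicate numbers were not shown to pair the samples, since deviations of same-numbered libraries correlated at -0.044 over 11060 genes. The depth limits the low genes, such as Bcl3 in EBs and Ctf2.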

Other observations

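Several other pathway genes changed from mESCs to EBs in both genotypes. Il6ra, the receptor for IL-6, had between 317 and 369 normalized counts in mESCs and between 17.1 and 19.6 in EBs. Osm, which encodes oncostatin M, had 107.0 and 110.8 in WT mESCs and 37.4 and 51.6 in CTCF-K20R mESCs, and it was listed at 0 in all 4 EB libraries. Tfcp2l1 went from between 13117 and 15133 normalized counts in mESCs to between 134.3 and 205.4 in EBs. In the other direction, Cntfr had between 37.2 and 44.0 in mESCs and between 405 and 813 in EBs, and Socs2, which acts on growth hormone signalling, had between 964 and 1139 in mESCs and between 2607 and 2939 in EBs. In CTCF-K20R cells the changes of Il6ra (-4.20), Osm (-5.49), Tfcp2l1 (-6.00), Cntfr (3.48) and Socs2 (1.38) passed the test of limma. Of all genes, 58.5% passed it. The WT changes have no replicate check.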
